A study of Mus musculus with 11 samples.

Results

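Solute carriers are membrane proteins, grouped into numbered Slc families, that move sugars, amino acids, ions, metals, vitamins and metabolites across cell and organelle membranes. They were taken here as every probe set annotated to 1 gene whose symbol is Slc, a family number, the letter a and a member number. This gave 171 probe sets of 138 genes from 39 families, out of 12422 probe sets (8251 named genes) on the Affymetrix MG_U74Av2 array. Their expression was compared between mammary glands bearing PN1a lesions (5 samples) and mammary glands bearing PN1b lesions (6 samples), each on its own array, to ask which carriers differ between a hyperplasia of high and a hyperplasia of low tumor-forming potential. Both lines are serially transplanted outgrowths of Trp53-/- (p53-null) Balb/c mammary epithelium that arose in contralateral glands of the same mouse, so each is 1 line and both lack p53. Tissue was placed in the cleared mammary fat pads of 3-week-old female wildtype Balb/c mice, and the glands were collected after 8 weeks with no other treatment. RNA came from the gland, which holds the host's wildtype fat, vessels and immune cells beside the transplanted epithelium.

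Solute carriers do not split ATP themselves. Facilitative carriers let a solute run down its gradient, cotransporters and exchangers couple it to sodium, protons or another solute, and the sodium gradient that many of them use is kept up by the Na+/K+ ATPase. In the mammary gland they are known for the uptake of glucose, amino acids, phosphate and zinc into the epithelium on the way to milk, and in tumors for feeding glycolysis and protein synthesis.

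The values are the deposited intensities on a log2 scale, in which a difference of 1 is 2-fold. The probes of a set differ in brightness, so a level is compared between samples for 1 probe set and never between genes. A probe set counts as called, having risen or fallen, where limma gave an adjusted p (Benjamini-Hochberg over all 12422) under 0.05 and the change was 1.5-fold or more. No source used here says if the samples are from different mice, and the titles of PN1b 1 to PN1b 4 have the form of number ranges that could stand for pools, so that the SDs and p-values describe sample-to-sample spread, which may be technical. The titles end in 1 of 3 codes that no source used here explains. Ending A is carried by all 5 PN1a samples and by PN1b 5 and PN1b 6, while PN1b 2 has ending B and PN1b 1, PN1b 3 and PN1b 4 have ending C. The carriers called or nearest the threshold, and the called genes of other transport and glycolysis lists, are therefore also given for the 7 samples of ending A, which are part of the 11.

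Among the 11 samples PN1a 1 and PN1a 2 were unlike the rest. Their titles begin with a number, whereas those of PN1a 3 to 5 begin with the line and a letter, which no source used here explains. The summed intensity of 7 luminal epithelial markers, among them Krt8 and Krt18, was 207 and 557 in these 2 samples, and 1260 to 1490 in the other PN1a samples, against 1090 to 1710 in PN1b. The sum is mostly that of the brightest markers. Krt8 and Krt18 were lower in PN1a 1 and PN1a 2 than in the other 9 samples. Krt19, with the largest change of the list, was also lower in these 2 samples (5.23 and 4.55) than in PN1a 3 to 5 (8.35 to 8.78). In PN1b it had 3.32 to 5.76. Its log2 fold change of PN1a over PN1b was 2.63 (adjusted p = 0.0808 from limma), opposite in sign to Krt8 at -1.25 and Krt18 at -1.40. None of the luminal markers was called. Of 8 macrophage markers Cd68 and C1qb rose, and all 8 summed to 176 to 857 in PN1a, with 857 and 400 in PN1a 1 and PN1a 2, and 64.2 to 174 in PN1b. Of 6 basal markers Trp63 fell. All 6 summed to 478 to 967 in PN1a and 834 to 1560 in PN1b. These sums are mostly Acta2, which was not called (-0.82, adjusted p = 0.0863 from limma), and do not measure Trp63. PN1b 5 and PN1b 6 had sums of 876 and 834, inside the PN1a range, and PN1b 1 to 4 had 1440 to 1560. The 5 measured adipocyte markers summed to 27.9 to 45.2 in PN1a and 26.2 to 44.6 in PN1b, none called. In whole glands fewer cells of a type and less RNA per cell cannot be told apart, and the part of these markers in the results below was not tested.

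Few solute carriers were called between the lesions. Of the 171 carrier probe sets 3 fell in PN1a (1.75%, against 1.62% of all probe sets) and 0 rose (against 0.869%). The carriers that fell were Slc20a1, Slc25a36 and Slc4a4, which bring phosphate into the cell, pyrimidine nucleotides across the inner mitochondrial membrane, and bicarbonate with sodium across the plasma membrane. The share of carriers that fell was near that of the whole array, and carriers as a whole were not shifted, with a median log2 fold change of 0.03 beside -0.01 for all probe sets. At an unadjusted p under 0.05, 22 carrier probe sets were lower (12.9%, against 11.3% of all) and 8 higher (4.68%, against 7.65% of all). Every PN1a sample lay below every PN1b sample for 4 carriers (2.34%, against 2.38% of all), the 3 called and Slc25a17, and above for 2 (1.17%, against 1.58%), Slc39a1 and Slc6a2. The mean of 89 carrier probe sets (52%) lay under 3.14, the median of all means, and 11 had a sample at the lowest value of the table.

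**Figure D1:**
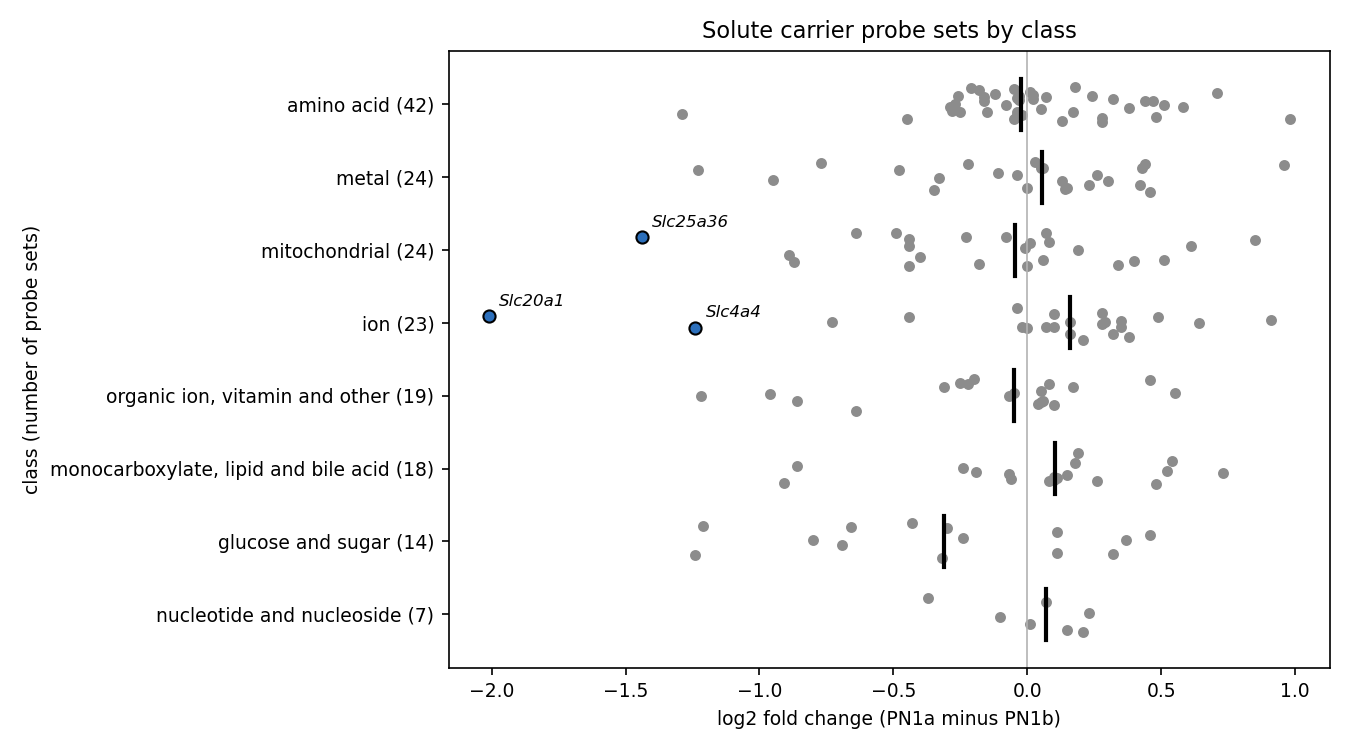
Solute carrier probe sets (171 points) by log2 fold change of PN1a over PN1b on the x axis and by class of Slc family on the y axis, with the number of probe sets. Black bars are class medians, and the 3 called points, at -2.01, -1.44 and -1.24, are blue and named.

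Ion carriers held the largest of these differences. Slc20a1, a cotransporter of sodium and phosphate, had log2 intensities of 6.18, 5.07, 6.18, 6.64 and 6.45 in PN1a 1 to 5, against 8.48, 8.58, 8.85, 8.87, 6.97 and 6.95 in PN1b 1 to 6. All PN1a samples lay below all PN1b samples, and within PN1b the samples of ending A, PN1b 5 and PN1b 6, lay close to the PN1a range. The mean was 6.10 ± 0.61 in PN1a (SD, n = 5) and 8.12 ± 0.91 in PN1b (SD, n = 6), a log2 fold change of -2.01 (limma, SE 0.42, adjusted p = 0.0258). Within ending A it was -0.86 and not called (adjusted p = 0.682 from limma). Without PN1a 1 and PN1a 2 it was -1.69 (adjusted p = 0.106 from limma). The call ended without any 1 of 7 samples, PN1a 1, 2 or 3 or PN1b 1, 2, 3 or 4 (adjusted p of 0.0507 to 0.0662 from limma).

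Slc4a4, the electrogenic sodium bicarbonate cotransporter, had log2 intensities of 1.64, 1.72, 0.61, 1.47 and 1.90 in PN1a 1 to 5, against 3.30, 2.62, 2.95, 3.13, 2.03 and 2.23 in PN1b 1 to 6. The groups did not overlap, but the gap between PN1a 5 and PN1b 5 was small and both groups lay in the dim part of the array. Its log2 fold change was -1.24 (limma, SE 0.29, adjusted p = 0.0392), and -0.66 within ending A (adjusted p = 0.688 from limma). With 16 added to each intensity before the log, which shrinks the change of dim probe sets, it was -0.27 and no longer called. Without PN1a 1 and PN1a 2 it was -1.38 (adjusted p = 0.0833 from limma), and leaving out any 1 of 8 samples, all but PN1a 5, PN1b 5 and PN1b 6, ended the call (adjusted p of 0.0581 to 0.0951 from limma).

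Slc25a36, which carries pyrimidine nucleotides into mitochondria, was the called member of the mitochondrial class. It had log2 intensities of 4.69, 4.55, 5.60, 5.48 and 5.35 in PN1a 1 to 5, against 6.83, 6.91, 6.73, 7.49, 5.71 and 5.78 in PN1b 1 to 6. As for Slc20a1, PN1b 1 to 4 were high and PN1b 5 and PN1b 6 lay just above the PN1a samples, and PN1a 1 and PN1a 2 were the lowest of all. Its mean was 5.13 ± 0.48 in PN1a (SD, n = 5) and 6.58 ± 0.70 in PN1b (SD, n = 6), a log2 fold change of -1.44 (limma, SE 0.33, adjusted p = 0.0392), and -0.61 within ending A (adjusted p = 0.698 from limma). Without PN1a 1 and PN1a 2 it was -1.10 (adjusted p = 0.176 from limma), and the call ended without any 1 of the same 8 samples as for Slc4a4 (adjusted p of 0.0569 to 0.0937 from limma). For these 3 carriers a lower value within ending A follows from the complete separation of the groups and is no independent check. The same holds for the sign of other genes below whose groups did not overlap, among them Slc25a17, Slc39a1, Slc6a2, Atp1b1, Abcd3, Pfkp and Atp6v1h.

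The promoters of the 3 called carriers are shown since no other carrier passed the test. Each is the RefSeq window from 250 bases before to 50 bases after the first listed start (GRCm38.p6), read 5′ to 3′ on the gene's strand: chr2:129198523-129198822 on the plus strand for Slc20a1, chr5:88887010-88887309 on the plus strand for Slc4a4 and chr9:97110992-97111291 on the minus strand for Slc25a36. Capitals mark 6 motifs searched on both strands, none of which overlapped here: the TATA box TATAAA, the CCAAT box CCAAT, the GC box GGGCGG, the E-box CACGTG, the AP-1 motif TGANTCA and the cAMP response element TGACGTCA.
Slc20a1: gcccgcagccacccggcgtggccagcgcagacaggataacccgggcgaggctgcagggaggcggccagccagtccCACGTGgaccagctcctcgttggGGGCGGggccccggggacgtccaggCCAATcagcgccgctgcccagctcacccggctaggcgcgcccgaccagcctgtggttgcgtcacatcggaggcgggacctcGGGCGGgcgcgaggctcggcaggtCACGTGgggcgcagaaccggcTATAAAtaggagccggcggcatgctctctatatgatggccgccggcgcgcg
Slc4a4: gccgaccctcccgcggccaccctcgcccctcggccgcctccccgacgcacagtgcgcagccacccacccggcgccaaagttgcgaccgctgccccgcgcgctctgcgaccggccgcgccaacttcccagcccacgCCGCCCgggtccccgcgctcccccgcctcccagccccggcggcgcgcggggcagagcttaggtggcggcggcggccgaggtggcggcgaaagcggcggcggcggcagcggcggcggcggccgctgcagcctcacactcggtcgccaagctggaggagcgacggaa
Slc25a36: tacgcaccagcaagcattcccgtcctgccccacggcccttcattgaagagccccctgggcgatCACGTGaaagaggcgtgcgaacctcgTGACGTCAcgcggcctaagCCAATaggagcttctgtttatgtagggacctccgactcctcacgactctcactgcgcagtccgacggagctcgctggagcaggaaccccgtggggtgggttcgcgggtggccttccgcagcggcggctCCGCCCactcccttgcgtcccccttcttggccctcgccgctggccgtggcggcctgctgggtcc
All 3 windows were rich in G and C, at 73%, 80% and 66.7% in the order printed, against a median of 60% over 160 promoters of 111 carrier genes and 52.7% over all 32851 promoters in the table. The only motif all 3 shared was the GC box, with 2 copies in Slc20a1 and 1 in each of the others. The table holds a later start for 2 of the genes, and these windows differed, with 52% G and C, 1 GC box and none of the other motifs for Slc20a1, and 48.3%, no GC box and 1 CCAAT box for Slc4a4, so that sharing the GC box holds for the first listed starts alone. The GC box was present in 62.5% of carrier promoters and 35.7% of all. The E-box occurred in Slc20a1 (2 copies) and Slc25a36 (1), and in 13.1% of carrier promoters against 7.15% of all, and the CCAAT box in the same genes, in 31.9% against 37.4%. The TATA box was in Slc20a1 alone of the 3 (8.12% of carrier promoters, 13.6% of all), the cAMP response element in Slc25a36 alone (1.25% against 1.79%) and the AP-1 motif in none (5% against 7.81%). A match describes the letters of the window and is not a binding site.

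**Figure D2:**
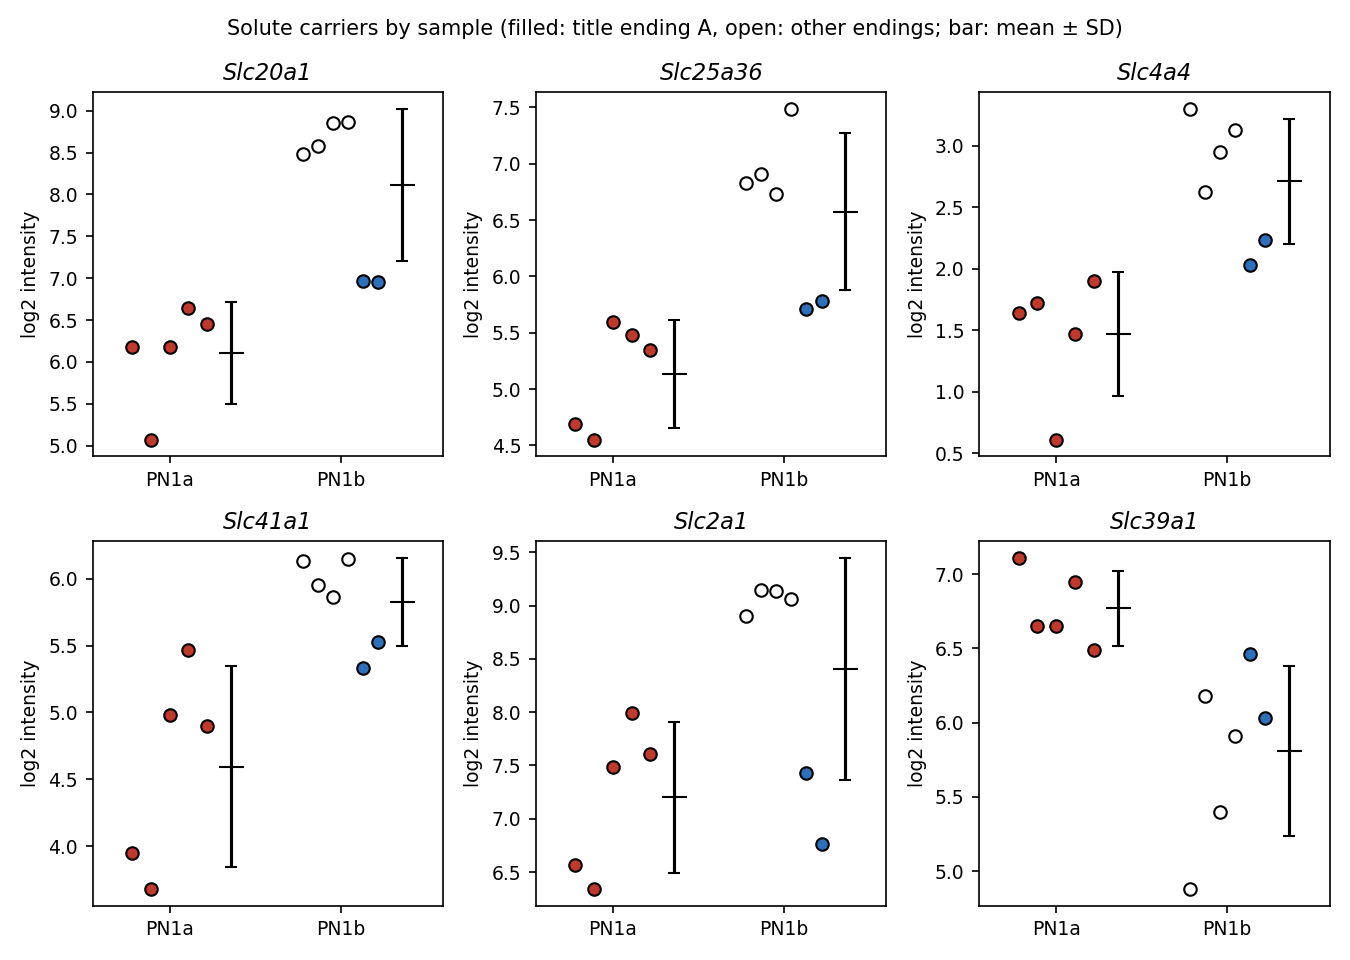
Log2 intensity (y axes, not starting at 0) of 6 solute carriers in the PN1a samples (left, red) and PN1b samples (right), 1 point per sample in order of sample number, with the group mean ± SD. Filled points carry title ending A and open points other endings, and for Slc2a1 the open PN1b points lie at 8.90 to 9.15 while the filled ones, 7.43 and 6.76, lie among the PN1a samples.

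The other ion carriers had no called probe set, and the class of 23 probe sets (20 genes) had a median log2 fold change of 0.16, with 16 probe sets above 0. Slc12a2, which loads chloride into cells with sodium and potassium, had 5.77 and 6.05 in PN1a 1 and PN1a 2 and 7.12 to 8.03 in PN1a 3 to 5, against 7.34 to 7.93 in PN1b. PN1a 1 and 2 were well below the rest, and PN1a 3, at 7.12, lay just below the PN1b range. The log2 fold change of Slc12a2 was -0.73 (adjusted p = 0.309 from limma), and -0.04 without PN1a 1 and PN1a 2. Slc34a2, the sodium phosphate cotransporter of secretory epithelia, had -0.44 (adjusted p = 0.252 from limma). Slc17a1, a sodium-dependent phosphate and urate carrier known from kidney, had 0.91 (adjusted p = 0.0914 from limma; 0.47 within ending A) in 1 probe set and 0.38 in another, and all 3 probe sets of Slc8a1, the plasma membrane exchanger of sodium and calcium, were above 0, at 0.28 to 0.49. Slc4a1, the chloride bicarbonate exchanger of red cells, had 0.10, and Slc4a2, its relative in epithelia, also 0.10, which was -0.28 without PN1a 1 and PN1a 2.

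The Na+/K+ ATPase supplies the sodium gradient for Slc20a1, Slc4a4 and Slc12a2. Of 8 measured genes of its subunits and Fxyd regulators Atp1b1, a beta subunit, fell by 3.33 on the log2 scale (adjusted p = 7.6e-04 from limma; -2.21 within ending A), with 2.22 to 3.81 in PN1a, against 4.90 to 7.10 in PN1b. The catalytic Atp1a subunits were not measured. The 8 genes summed to 309 to 458 in PN1a and 518 to 1080 in PN1b, where PN1b 5 and PN1b 6 had 518 and 556. The sum is mostly that of the brightest genes and does not measure Atp1b1. No other gene of the list was called, with 7 of the 8 below 0 and 1, Fxyd5, above (0.65). Atp1b3 had -0.80 (adjusted p = 0.0583 from limma), and Fxyd2 had -2.56 (adjusted p = 0.0949 from limma) and -0.28 within ending A.

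The 24 mitochondrial probe sets (20 genes, all of family 25) had a median log2 fold change of -0.05, and at an unadjusted p under 0.05 6 of the 24 were lower (against 11.3% of all probe sets) and 2, of Slc25a5 and Slc25a48, were higher (against 7.65%). After Slc25a36 the smallest adjusted p among them was that of Slc25a17, which carries cofactors such as CoA across the peroxisomal membrane. It had 5.49, 5.20, 5.69, 5.50 and 5.85 in PN1a 1 to 5, against 6.44, 6.26, 6.73, 7.07, 5.91 and 6.10 in PN1b 1 to 6. The groups were separate by the narrow gap between PN1a 5 and PN1b 5, and the log2 fold change of -0.87 (limma, SE 0.23, adjusted p = 0.0583) did not pass and was -0.46 within ending A.

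Abcd3, an ATP-driven transporter of the same peroxisomal membrane, fell by 0.98 (adjusted p = 0.0142 from limma; -0.74 within ending A), the only 1 called of 21 ABC transporters. Slc25a20, which exchanges acylcarnitine for carnitine in fatty acid oxidation, had -0.64 (adjusted p = 0.183 from limma) and -0.10 within ending A. Slc25a25, a calcium-regulated carrier of ATP-magnesium and phosphate, had 4.15 and 4.14 in PN1a 1 and PN1a 2 and 6.16 to 6.62 in PN1a 3 to 5, against 5.70 to 6.85 in PN1b. The log2 fold change of -0.89 (adjusted p = 0.334 from limma) rested on those 2 samples and was 0.03 without them.

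The exchangers of ADP and ATP gave no called difference. Slc25a4 had -0.44 (adjusted p = 0.262 from limma). The 3 probe sets of Slc25a5 had 0.61, 0.19 and 0.06, of which the first lay at 0.00 to 1.34 in all samples, at the foot of the table. Slc25a4 and Slc25a5 are close in sequence, and probe sets that can share probes may not tell them apart. The citrate carrier Slc25a1 had 0.40 and 0.51 in its 2 probe sets. PN1a 1 and PN1a 2 were above the other 9 samples in both, and without them the values were -0.07 and -0.18. The dicarboxylate carrier Slc25a10 had 0.08.

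The glucose and sugar families had the lowest class median, -0.31 over 14 probe sets (11 genes), with 9 below 0 and none called, and 0.02 within ending A. Slc2a1, the glucose transporter of most cell types, had 6.57, 6.34, 7.49, 7.99 and 7.61 in PN1a 1 to 5, against 8.90, 9.15, 9.14, 9.06, 7.43 and 6.76 in PN1b 1 to 6. PN1b 1 to 4 were above every other sample, whereas PN1b 5 and PN1b 6 lay inside the PN1a range. The log2 fold change of -1.21 (limma, SE 0.47, 95% interval -2.22 to -0.19, adjusted p = 0.186) did not pass, and within ending A it was 0.10.

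Slc2a4, the insulin-responsive glucose transporter of fat and muscle, had 4.09, 3.56, 3.47, 3.86 and 3.54 in PN1a 1 to 5, against 4.70, 4.97, 4.90, 4.37, 4.05 and 4.06 in PN1b 1 to 6. The groups overlapped at PN1a 1, and the log2 fold change was -0.80 (adjusted p = 0.0731 from limma; -0.35 within ending A), with -0.24 in a dimmer probe set. Slc2a3, the transporter of neurons and white blood cells, had 0.37 in its brighter probe set and -0.32 in the other. Slc2a2, the transporter of liver and pancreatic islets, had a log2 fold change of -1.24 (adjusted p = 0.189 from limma) that rested on PN1a 1 and PN1a 4, at 0.21 and 0.00, where 0.00 is the lowest value of the table.

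Of 14 measured glycolysis genes, which use the glucose these carriers bring in, Pfkp fell by 1.84 (adjusted p = 0.00738 from limma; -1.27 within ending A). The log2 fold change was below 0 for 13 of the 14, as for 6389 of all 12422 probe sets, with a median of -0.64. Within ending A the median was -0.06, and some genes turned sign, such as Pkm at 0.49, Pgam1 at 0.37, Tpi1 at 0.29 and Pfkl at 0.21. Like Slc2a1, 7 of the 14 had PN1b 1 to 4 above all 7 samples of ending A, an order that 4.93% of all probe sets showed. The 14 summed to 1700 to 2840 in PN1a and 2060 to 4160 in PN1b, where PN1b 5 and PN1b 6 had 2260 and 2060.

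Amino acid carriers were the largest class, with 42 probe sets of 32 genes, none called and a median log2 fold change of -0.03. Slc3a2, the heavy chain that brings several amino acid exchangers to the cell surface, had 7.61, 7.90, 8.31, 8.27 and 8.47 in PN1a 1 to 5, against 8.17 to 8.35 in PN1b. Its log2 fold change was -0.16 (95% interval -0.56 to 0.24), and that of its partner Slc7a5, the exchanger of large neutral amino acids, -0.26 (95% interval -0.68 to 0.16). The glutamine carriers Slc1a5 and Slc38a2 had -0.04 and -0.28, the taurine carrier Slc6a6 0.18 and the cystine exchanger Slc7a11 -0.05 (adjusted p of 0.724 to 0.96 from limma). For Slc38a2 this value was -0.96 within ending A and 0.28 without PN1a 1 and PN1a 2. Its dimmer probe sets disagreed in sign, at -0.45, -0.25 and 0.38. None of 17 genes of the amino acid response, among them Atf4 at -0.21 and Asns at 0.21, was called. The 17 ran from -2.82 for Atf3 to 0.74 for Gars, with 10 below 0 and 7 above. Atf3 had 2.48 and 3.08 in PN1a 1 and PN1a 2. It had 8.11 to 8.30 in PN1a 3 to 5 and 7.78 to 9.25 in PN1b.

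Slc6a8, which takes up creatine, had 5.25, 4.57, 5.43, 5.25 and 5.62 in PN1a 1 to 5, against 6.88, 6.72, 7.02, 7.43, 5.47 and 5.56 in PN1b 1 to 6. PN1b 5 and PN1b 6 again lay within the PN1a range. The log2 fold change was -1.29 (limma, SE 0.36, adjusted p = 0.0716), and -0.29 within ending A. Another, dimmer probe set of the gene had -0.03. Slc6a2, the noradrenaline transporter of sympathetic nerves, had 2.55, 2.11, 2.89, 2.25 and 2.03 in PN1a 1 to 5, against 1.25, 1.98, 1.84, 1.69, 0.89 and 0.69 in PN1b 1 to 6. It was the highest log2 fold change of all carriers, at 0.98 (adjusted p = 0.0701 from limma) and 1.58 within ending A (adjusted p = 0.172 from limma), but at dim values, and its other probe set had -0.18. The peptide carrier Slc15a2, which was grouped with the amino acid families, had 0.71 (adjusted p = 0.251 from limma), with 3.86 in PN1a 2 and 1.77 to 2.56 in the other PN1a samples, against 1.38 to 2.28 in PN1b.

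The metal carriers (24 probe sets, 17 genes) had a median of 0.05 and none was called. Slc41a1, a magnesium transporter, came nearest, with 3.95, 3.68, 4.98, 5.47 and 4.90 in PN1a 1 to 5, against 6.13, 5.95, 5.86, 6.15, 5.33 and 5.53 in PN1b 1 to 6. PN1a 4 lay above PN1b 5, and PN1a 1 and PN1a 2 were far below the rest. The log2 fold change was -1.23 (limma, SE 0.31, adjusted p = 0.0549), -0.83 within ending A and -0.71 without PN1a 1 and PN1a 2. Slc39a1, a zinc importer of the plasma membrane, had 7.11, 6.65, 6.65, 6.95 and 6.49 in PN1a 1 to 5, against 4.88, 6.18, 5.40, 5.91, 6.46 and 6.03 in PN1b 1 to 6. The groups were separate, with PN1a 5 only just above PN1b 5, and the log2 fold change was 0.96 (limma, SE 0.27, adjusted p = 0.0737) and 0.52 within ending A, with 0.44 in its dimmer probe set.

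Slc30a4, which loads zinc into milk vesicles, differed little (0.03, 95% interval -0.37 to 0.43), and Slc39a6, a zinc importer known as an estrogen-responsive gene in breast cancer cells, had 0.42 (95% interval -0.24 to 1.08). Slc11a1, the metal ion carrier of macrophage phagosomes, had 3.54, 3.31, 3.43, 3.60 and 3.84 in PN1a 1 to 5, against 3.25 to 3.91 in PN1b. Its log2 fold change was 0.05 (95% interval -0.33 to 0.44), beside the higher macrophage marker sums of PN1a given above. The 2 probe sets of Slc11a2, which takes up iron, disagreed in sign, at 0.43 and -0.95 (adjusted p = 0.297 and 0.252 from limma).

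Among carriers of monocarboxylates, lipids and bile acids (18 probe sets, 15 genes, median 0.10, none called) Slc44a1, a choline transporter, had 3.65, 3.38, 3.27, 4.12 and 4.28 in PN1a 1 to 5, against 4.70, 4.30, 4.83, 5.06, 4.42 and 4.28 in PN1b 1 to 6. The groups met at PN1a 5 and PN1b 6, and the log2 fold change was -0.86 (limma, SE 0.23, adjusted p = 0.0694) and -0.61 within ending A. Slc16a1, the carrier of lactate and pyruvate, had 0.48 (adjusted p = 0.488 from limma), and Slc27a1, a fatty acid transport protein of fat and muscle, -0.19 (adjusted p = 0.679 from limma). Slc10a6, a carrier of sulfated steroids, had 1.11 and 1.70 in PN1a 1 and PN1a 2 and 3.17 to 3.55 in PN1a 3 to 5, against 3.18 to 3.80 in PN1b. It was another carrier that was well below the rest in PN1a 1 and 2, with -0.91 over all samples and -0.11 without those 2.

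The nucleotide and nucleoside class (7 probe sets, 6 genes), in which Slc33a1 was placed by its family number, had a median of 0.07 and none was called. Slc29a1, a nucleoside transporter, had 6.82 and 6.70 in PN1a 1 and PN1a 2 and 5.26 to 5.80 in PN1a 3 to 5, against 5.40 to 6.46 in PN1b, which left a log2 fold change of 0.23, and -0.28 without PN1a 1 and PN1a 2. The carriers of organic ions, vitamins and others (19 probe sets, 17 genes, median -0.05, none called) included Slc46a1, which brings folate into cells with protons. It had 2.94, 2.86, 2.97, 2.50 and 2.88 in PN1a 1 to 5, against 4.20, 4.27, 4.12, 4.48, 2.44 and 3.22 in PN1b 1 to 6. PN1b 1 to 4 were all above 4 and the samples of ending A all below, so the log2 fold change of -0.96 (adjusted p = 0.135 from limma) had no counterpart within ending A, where the 2 groups had the same mean to 2 decimals. Slc22a4, a carrier of ergothioneine, had -1.22 (adjusted p = 0.124 from limma), spread over 0.53 to 1.44 in PN1a and 0.98 to 3.71 in PN1b. Slc22a18, an imprinted gene of the organic ion family, had -0.86 (adjusted p = 0.0785 from limma) and -0.97 within ending A.

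**Figure D3:**
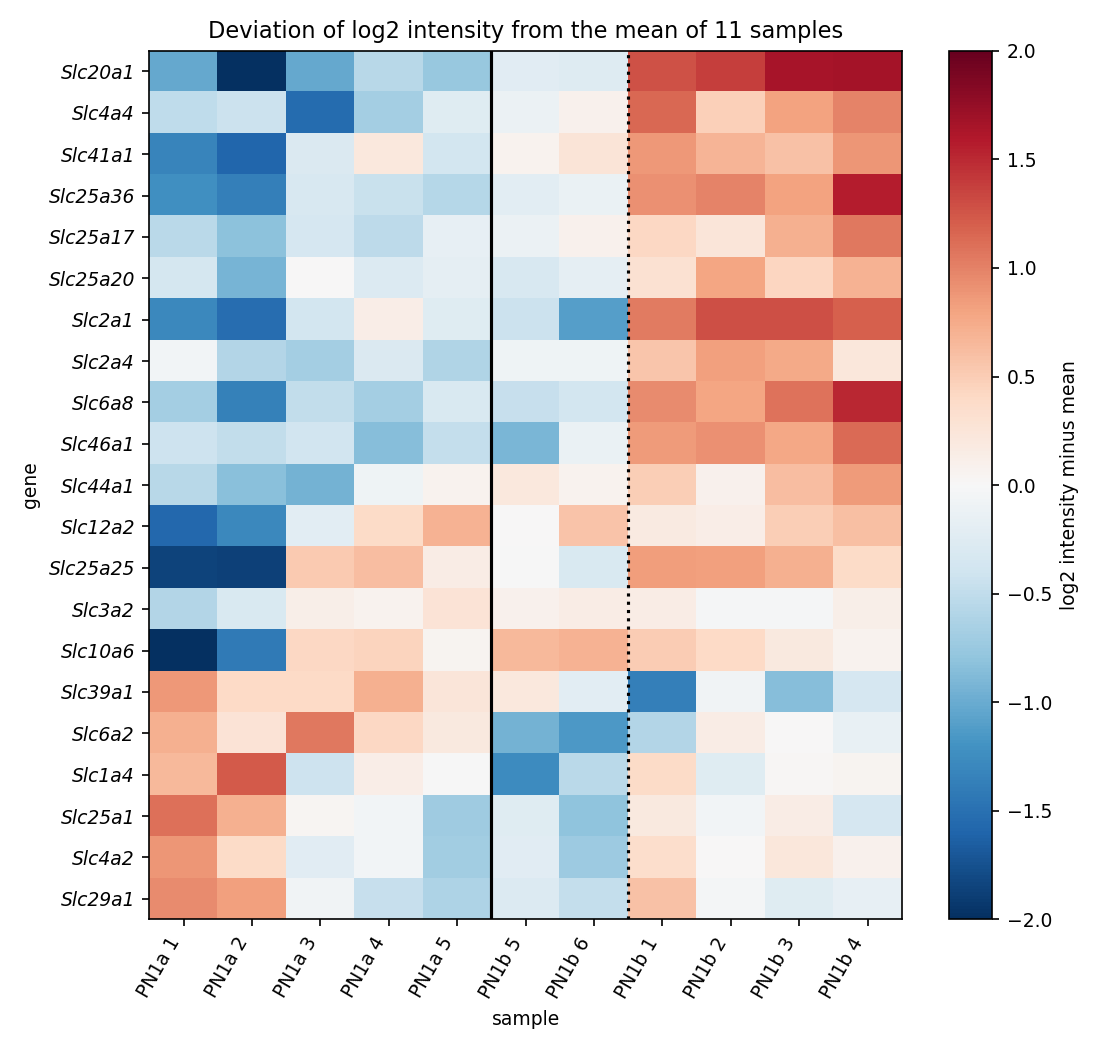
Log2 intensity minus the mean of the 11 samples (color, from -2 in blue to 2 in red) of 21 solute carriers (rows) in the PN1a samples (left of the solid line), PN1b 5 and PN1b 6 of title ending A (middle) and PN1b of other endings (right of the dotted line). Slc20a1 to Slc46a1 are mostly red in PN1b 1 to 4 alone, and Slc12a2, Slc25a25 and Slc10a6 are blue in PN1a 1 and PN1a 2.

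Within PN1b the title endings separated a set of carriers that includes all 3 called ones. PN1b 5 and PN1b 6 were lower than PN1b 1 to 4 by the same limma rule for Slc2a1, by 1.97 (adjusted p = 0.0209 from limma), and for Slc20a1, by 1.74 (adjusted p = 0.0219 from limma), which is 1.17% of carriers against 0.394% of all probe sets, and 0 were higher (against 0.225%). PN1b 1 to 4 lay above all 7 samples of ending A for 13 carrier probe sets (7.6%, against 4.93% of all). These were Slc20a1, Slc4a4, Slc25a36, Slc41a1, Slc2a1, Slc2a4, Slc6a8, Slc46a1, Slc22a17 and the family 25 members Slc25a17, Slc25a20, Slc25a28 and Slc25a51. They lay below all 7 for 6 (3.51%, against 2.14%), those of Slc11a2, Slc17a1, Slc25a48, Slc30a3, Slc7a8 and Slc8a1. All PN1a samples have ending A, so the lesion and the ending cannot be told apart for the 4 PN1b samples with other endings. These 4 are also the samples whose titles have the form of number ranges, so possible pooling cannot be told apart from the ending either.

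**Figure D4:**
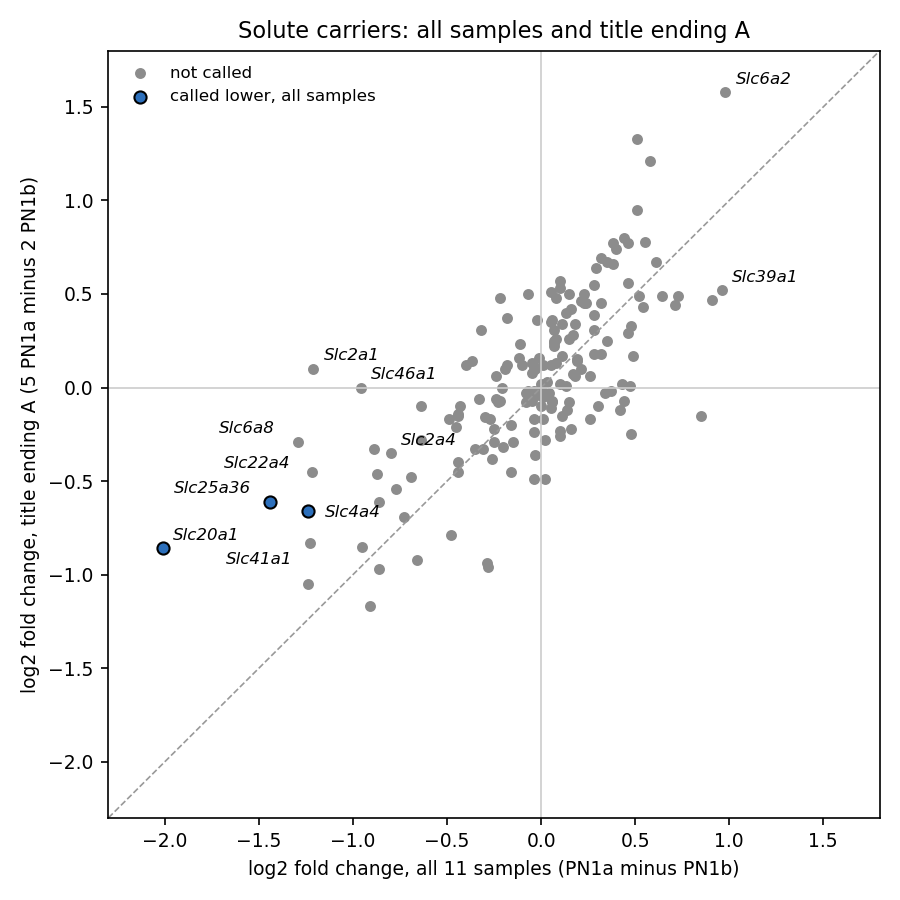
Log2 fold change (PN1a minus PN1b) of the 171 solute carrier probe sets over all 11 samples (x axis) and within title ending A (y axis, 5 PN1a and 2 PN1b samples that are part of the 11), with the dashed line at equal values. The called carriers, in blue, lie at -2.01, -1.44 and -1.24 on the x axis and at -0.86, -0.61 and -0.66 on the y axis, and Slc2a1 and Slc46a1 lie near 0 within ending A.

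No carrier was called within ending A (0.0483% of all probe sets were higher and 0.0966% lower) or with the ending as a block in the fit (0.0966% and 0.153%). Endings B and C hold PN1b samples only. The fixed block therefore gives the same log2 fold changes as ending A and is no separate check. With the block the smallest adjusted p of a carrier was that of Slc6a2, 0.0561 from limma. PN1a 1 and PN1a 2 were both below the other 9 samples for 15 carrier probe sets (8.77%, against 10.1% of all) and both above for 13 (7.6%, against 8.84%), shares near those of the whole array. Other ways of testing gave 0 to 9 carriers lower and 0 to 2 higher. With 9 lower (5.26%, against 3.03% of all) and 1 higher (0.585%, against 1.47%), the fit without PN1b 5 gave the most, and with trended and robust eBayes 6 were lower (3.51%, against 2.29%) and 1 higher (0.585%, against 1.19%). At the study's unadjusted threshold the methods' t-test called 8 lower (4.68%, against 3.56%) and 2 higher (1.17%, against 2.18%), and after Benjamini-Hochberg adjustment 0 (against 0.765% and 0.403%). With each sample centred on its median the same 3 carriers fell (1.75%, against 1.5%) and 0 rose (against 1.25%). Without PN1a 1 and PN1a 2 no carrier was called, while 0.684% of all probe sets were higher and 0.66% lower.

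Of 28 carrier genes with more than 1 probe set, 19 had the same sign in all of them, and no gene had a called and an uncalled probe set, since each of the 3 called genes has a single one. The other transporter lists had 0 or 1 call each, all lower, beside 1.62% of all probe sets. Atp6v1h, a subunit of the proton pump of lysosomes, fell by 1.0 (adjusted p = 0.031 from limma; -0.66 within ending A), the only 1 called of 15 V-ATPase genes, and none of 7 aquaporins or 3 Slco organic anion carriers was called.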

How the data were processed

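RNA of mammary glands from 5 PN1a and 6 PN1b samples was hybridized to Affymetrix MG_U74Av2 arrays. The authors ran dChip (PM-MM model, quantile normalization) on the scans, and the deposited table holds linear intensity values. No source used here gives the dChip version. Subtracting mismatch probes makes dim values noisy, and quantile normalization hides any shift of all genes together. Intensities ran from 1 to 1938, with 1.38% of carrier values at 1, and no depth applies, so the number of arrays limits the precision. Sample medians were 8.57 to 8.94 in PN1a and 8.88 to 9.51 in PN1b. Any pair of samples had at most 1.24% of values in common, and each counted as a replicate, numbered in accession order.

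Log2 was taken with no pseudocount, and 66 of 12488 probe sets were left out as array controls. Probe sets were named from the platform annotation, and all 171 carrier probe sets matched a RefSeq gene. PN1a minus PN1b was fitted with limma 3.58.1 in R 4.3.3 (two-sided, lmFit then eBayes, without covariates), a step tested on simulated data. Classes were assigned by Slc family number, so that not every member carries the solutes its class is named for. The vitamin carrier Slc5a6 stands with the sugar families, and Slc33a1 with the nucleotide and nucleoside families. Motifs were counted and figures drawn in Python 3.11.15 (matplotlib 3.10.9). Promoters are from RefSeq (GRCm38.p6) and matched 111 of the 138 genes.

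The members and lists were chosen with earlier results of these data known. Genes were named by a rule: those called, the 5 uncalled probe sets with the smallest adjusted p in each direction, the 6 genes of highest mean and 30 carriers known from the mammary gland or tumors, of which 4 were not analysed here. A gene is given by its called or else its brightest probe set. Slc1a4, Slc4a2, Slc25a25, Slc46a1, Slc22a4, Slc10a6, Slc2a2, Slc22a18 and Slc25a48 were added after their values were seen, as were the genes listed for the title endings.

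The marker lists not described in the report had these results. None of 7 skeletal muscle, 6 T and B cell, 5 endothelial and 3 red cell markers was called, and of 3 neuron and Schwann cell markers S100b fell. S100b had 0.53 to 2.07 in PN1a and 6.04 to 6.21 in PN1b 1 to 4, while PN1b 5 and PN1b 6 had 2.36 and 3.27. Alternatives were the methods' t-test, the title ending as a fixed or random block or held to ending A, repeated quantile normalization, centring on the median, log2(value + 16), a filter at the median, eBayes with trend and robust, thresholds of no and 2-fold change, and samples left out. The alternative log2(value + 1) was chosen after seeing the data.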

Additional observations from a re-analysis of the deposited data

Results flagged for a closer look

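Of 92 groups of log2 values of the named carriers, 2 held a sample far from the others of its group, where chance gives about 1 in 20. For the folate carrier Slc46a1, PN1a 4 had 2.50 and the other PN1a samples 2.86 to 2.97. For the glucose transporter Slc2a2, PN1b 5 had 2.52 and the other PN1b samples 2.85 to 3.02.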

How the results depend on the processing

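No paired analysis was possible because the labels give the samples no replicate numbers. The count of carriers that fell, 3 in the main fit, was 0 with the title ending as a fixed block, within ending A, with the ending as a random block, without PN1a 1 and PN1a 2 and by the methods' t-test after Benjamini-Hochberg adjustment. It was 7 of 82 with the filter at the median (8.54%) and 5 for log2(value + 1) (2.92%). With trend and robust it was 6, and by the methods' t-test at their threshold 8. The cause of these moves was not tested, and the fixed block, which gives the log2 fold changes of ending A, is no separate check. The filter left 82 carriers and fewer tests, and the fit was run again on the probe sets kept. Leaving out each sample gave 0 to 9 lower, with 0 without PN1a 1, 2 or 3 or PN1b 1, 2, 3 or 4, 2 without PN1a 4, 4 without PN1a 5 or PN1b 6 and 9 without PN1b 5. The share over all probe sets was not counted for the filter, log2(value + 1), the random block or single samples left out other than PN1b 5. The counts of those settings therefore say nothing about carriers as against other probe sets. The count that rose, 0 in the main fit, was 1 with the filter and with trend and robust, 2 by the methods' t-test at their threshold and 0 to 1 with each sample left out, the 1 being Slc39a1 without PN1b 5. Over the array, centring moved the calls to 155 higher and 186 lower (108 and 201 in the main fit), with 3 carriers lower in both. For 46 named probe sets and 1050 alternatives, 943 kept their side of the threshold and moved little, 37 moved, 39 lost and 31 gained a call, and none of the 3 called carriers changed sign. Among uncalled ones 21 did in at least 1 alternative, 9 of them within ending A. Dim carriers such as Slc4a4 have the least certain sizes of change.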
